A study of Mus musculus with 18 samples.

Results

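Cholesterol and fatty acid synthesis was followed through 35 genes that encode enzymes of both pathways, the SREBP transcription factors with the proteins that hold them back, sterol carriers, and LXR receptors with their efflux targets. A gene was represented by the probe set (a group of short probes for 1 transcript) that carried its symbol alone in the platform annotation and had the highest mean signal among those that passed the filter on low signal. Of the 35 genes, 33 had such a probe set, out of 11104 genes tested and 18193 genes named on the array. For 32 of the 33 genes no other probe set of the gene had a higher mean, while for Fads2 a probe set of higher mean (10.2, against 9.38 for the one used) did not pass. Acat2 and Nr1h2 were not analysed here. In stimulated cells of vehicle-treated mice, most enzymes of cholesterol synthesis that changed were higher, as were Fasn, Insig1 and Tmem97, while Scd2, Dhcr7, Mvk and Abcg1 were lower. At the probe sets used, the responses of Tmem97, Scd2, Dhcr7 and Abcg1 to stimulation were smaller under PF-303, and that of Insig2 was larger. That of Fasn was 1.43 on the log2 scale with PF-303 and with vehicle, from a lower level under PF-303.

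The cells were CD23+ B lymphocytes of the spleen of C57BL/6J mice, and CD23 is carried by follicular B cells. Mice were given the BTK inhibitor PF-303 or its vehicle, PF-303 2 h before anti-IgD, which crosslinks the B-cell receptor, or before PBS as its control, and cells were taken after another 2 h. BTK is the kinase that links the B-cell receptor to phospholipase C. RNA was measured on 18 Affymetrix Mouse Genome 430 2.0 arrays. The 4 groups were anti-IgD plus PF-303 (n = 5, replicates 1 to 5), anti-IgD plus vehicle (n = 4, replicates 1, 2, 4 and 5), PBS plus PF-303 (n = 5, replicates 1 to 5) and PBS plus vehicle (n = 4, replicates 1 to 4). All groups share the strain, the tissue and the CD23+ cell type, and the labels give neither ages nor a dose. The labels do not say that every array came from a separate mouse, so the tests measure the spread between arrays, which may be technical. The values are linear MAS5 intensities, called signals here, and are given per array in the order of the replicate numbers. Fold changes are differences of log2(signal + 16) with their standard error (SE), which shrinks the changes of weak genes. A gene is said to be higher or lower where the adjusted p was under 0.05 in a limma fit over all 11104 genes.

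Cells make cholesterol from acetyl-CoA through mevalonate, isoprenoids, squalene and lanosterol. When membranes of the endoplasmic reticulum hold little sterol, SCAP escorts SREBP to the Golgi, where it is cut and released to act on genes of sterol and fatty acid synthesis, and INSIG proteins keep SCAP back when sterol is plentiful. LXR receptors bind oxysterols and act on the genes of sterol efflux. Lymphocytes that leave the resting state need new membrane, and antigen-receptor signals are known to raise lipid synthesis in them.

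Promoter sequences from RefSeq (assembly GRCm38.p6, 250 bases before to 50 after a start) were found for 25 members, with 34 promoters in all. The sterol regulatory element, to which SREBP binds, was searched as TCACNCCAC and TCACNCCAT on both strands. It stood in 3 of the 34 promoters (8.82%), against 1.98% of all 32851 promoters, and these were those of Hmgcs1, Msmo1 and Srebf2. They are printed because they are the members with this motif, with the match in capitals, 5′ to 3′ on the strand of the gene.
Hmgcs1, chr13:119690194-119690242, plus strand: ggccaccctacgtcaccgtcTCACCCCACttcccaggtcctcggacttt
Msmo1, chr8:64733727-64733775, minus strand: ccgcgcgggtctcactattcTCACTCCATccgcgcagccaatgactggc
Srebf2, chr15:82147087-82147135, plus strand: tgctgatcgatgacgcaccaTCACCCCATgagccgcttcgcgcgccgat
Counted from the start site, the printed stretch runs from -157 to -109 in Hmgcs1, from -197 to -149 in Msmo1 and from -182 to -134 in Srebf2.

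The CCAAT box, searched as CCAAT on both strands, stood in 20 of the 34 promoters (58.8%), against 37.4% of all promoters. The GC box GGGCGG stood in 24 (70.6%), against 35.7%, and the E-box CACGTG in 7 (20.6%), against 7.15%. No overlap between matches of different motifs was taken into account. The 150 bases before the start are shown for Idi1, Cyp51, Tmem97 and Fasn, which were among the members with the largest rises after anti-IgD and have a promoter entry, with CCAAT and its reverse complement ATTGG in capitals.
Idi1, chr13:8885456-8885605, plus strand: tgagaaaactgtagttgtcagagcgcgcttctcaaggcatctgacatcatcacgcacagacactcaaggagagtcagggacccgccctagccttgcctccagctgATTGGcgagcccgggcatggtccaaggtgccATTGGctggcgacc
Cyp51, chr5:4104698-4104847, minus strand: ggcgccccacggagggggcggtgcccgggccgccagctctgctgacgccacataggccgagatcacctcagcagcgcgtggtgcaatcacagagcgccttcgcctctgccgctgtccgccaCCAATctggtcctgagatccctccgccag
Tmem97, chr11:78550736-78550885, minus strand: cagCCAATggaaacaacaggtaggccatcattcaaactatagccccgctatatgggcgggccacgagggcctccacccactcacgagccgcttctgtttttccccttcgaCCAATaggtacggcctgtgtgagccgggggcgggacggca
Fasn, chr11:120824548-120824697, minus strand: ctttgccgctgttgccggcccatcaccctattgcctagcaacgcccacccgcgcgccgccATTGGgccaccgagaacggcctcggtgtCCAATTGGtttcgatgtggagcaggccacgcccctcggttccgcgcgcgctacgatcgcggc
The Fasn window holds 3 matches, of which 1 on each strand overlap in the stretch CCAATTGG. Idi1 and Tmem97 have 2 matches each and Cyp51 has 1. Insig1 rose by 1.37 with anti-IgD under vehicle and has a promoter entry but is not shown. Its 1 CCAAT match lies at -216 to -212, outside the 150 bases before the start. A match is a string of letters and not a measured binding site. Sqle, Fdps, Fdft1, Stard4, Scd1, Scd2, Fads1 and Abcg1 have no entry in the table used.

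The trimmed mean of every array was between 99.96 and 99.97, so each array had been scaled to a common level, and a change in a gene is a change against the whole of its array. Such scaling removes differences in total RNA, and a change in the RNA of a cell cannot be told apart from a change in which cells were collected. In 6 arrays the spike-in controls were above 2 times their median over all arrays, at 2.26 to 3.88 times: replicates 1 and 3 of anti-IgD plus PF-303, 3 and 4 of PBS plus PF-303 and 3 and 4 of PBS plus vehicle. The group of anti-IgD plus vehicle had none of these arrays, with ratios of 0.531 to 1.11. The ratio of 3′ to 5′ probe sets, a sign of RNA quality, was 0.698 to 1.22 for Gapdh and highest in replicate 4 of PBS plus vehicle and replicate 1 of anti-IgD plus PF-303. Follicular B cell markers were the strongest of 9 marker lists, with summed signals of 11709 to 30859, while the 5 T cell genes with a probe set summed to at most 97.2 per array. Macrophage genes were present, with sums of 1501 to 3037 in anti-IgD plus PF-303, 866 to 2851 in anti-IgD plus vehicle, 1301 to 2344 in PBS plus PF-303 and 1497 to 2085 in PBS plus vehicle. None of the 6 macrophage genes tested was called in any comparison. Among 4 plasma cell genes anti-IgD left 2 higher and 1 lower under PF-303 and 1 was higher and 1 lower under vehicle, 1 of 4 neutrophil genes was higher under PF-303, and 1 of 3 dendritic cell genes was lower with PF-303 in stimulated cells. Of 6 follicular B markers 4 were lower with anti-IgD under vehicle and 2 were higher with PF-303 in stimulated cells, and the part of these shifts in the results was not tested.

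In PF-303-treated mice, anti-IgD left 12 of the 33 higher and 5 lower, where 14.7% of all genes were higher and 19.1% lower, with a median of 0.16 for the 33 genes and -0.05 for all genes tested. Among the 15 cholesterol enzymes 8 were higher and 2 lower. Anti-IgD in vehicle-treated mice left 14 of the 33 genes higher and 8 lower, where 17.4% of all genes were called higher and 30.6% lower, 47.9% in all. The median log2 fold change of the 33 genes was 0.06, against -0.13 for all genes tested. Cholesterol synthesis accounted for most of the rises: of its 15 enzymes 9 were higher, from Lss at 0.30 ± 0.12 to Cyp51 at 1.41 ± 0.15, and 4 were lower, Mvk, Pmvk, Nsdhl and Dhcr7. PF-303 in stimulated cells left 5 of the 33 higher and 6 lower, beside 19.8% and 10.4% of all genes (30.2% in all), with medians of 0.06 and 0.08. In unstimulated cells 0 were higher and 1 lower with PF-303, beside 0.072% and 0.675% of all genes, with medians of -0.00 and 0.01. Comparisons that use the same arrays share their noise: the response under vehicle and the difference made by PF-303 in stimulated cells both rest on the arrays of anti-IgD plus vehicle.

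Arrays were also shifted to a common median, after which the median of all genes was 0.04 for anti-IgD under vehicle (-0.13 as deposited), -0.03 for PF-303 in stimulated cells (0.08 as deposited) and -0.05 for the response under PF-303 minus that under vehicle (0.07 as deposited). Of all genes, 2777 were then higher and 2178 lower with anti-IgD under vehicle (1928 and 3394 as deposited), and 1283 higher and 1695 lower with PF-303 in stimulated cells (2202 and 1150 as deposited). For the difference between the responses, 345 of all genes were then higher and 689 lower (740 and 346 as deposited). The members gave 15 higher and 5 lower under vehicle after this shift, and 4 higher and 8 lower with PF-303 in stimulated cells. The labels also hold a position code, and its letter was fitted as a fixed block, called the position block here. The calls of members that depended on the shift to a common median or on the position block are named beside the genes. Fitted as a random block instead, the letter had a consensus correlation of -0.0035 and changed no call of a member. A correlation this small makes that fit almost the same as the fit without a block, so it could hardly change a call. The groups were spread unevenly over the letters.

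**Figure D1:**
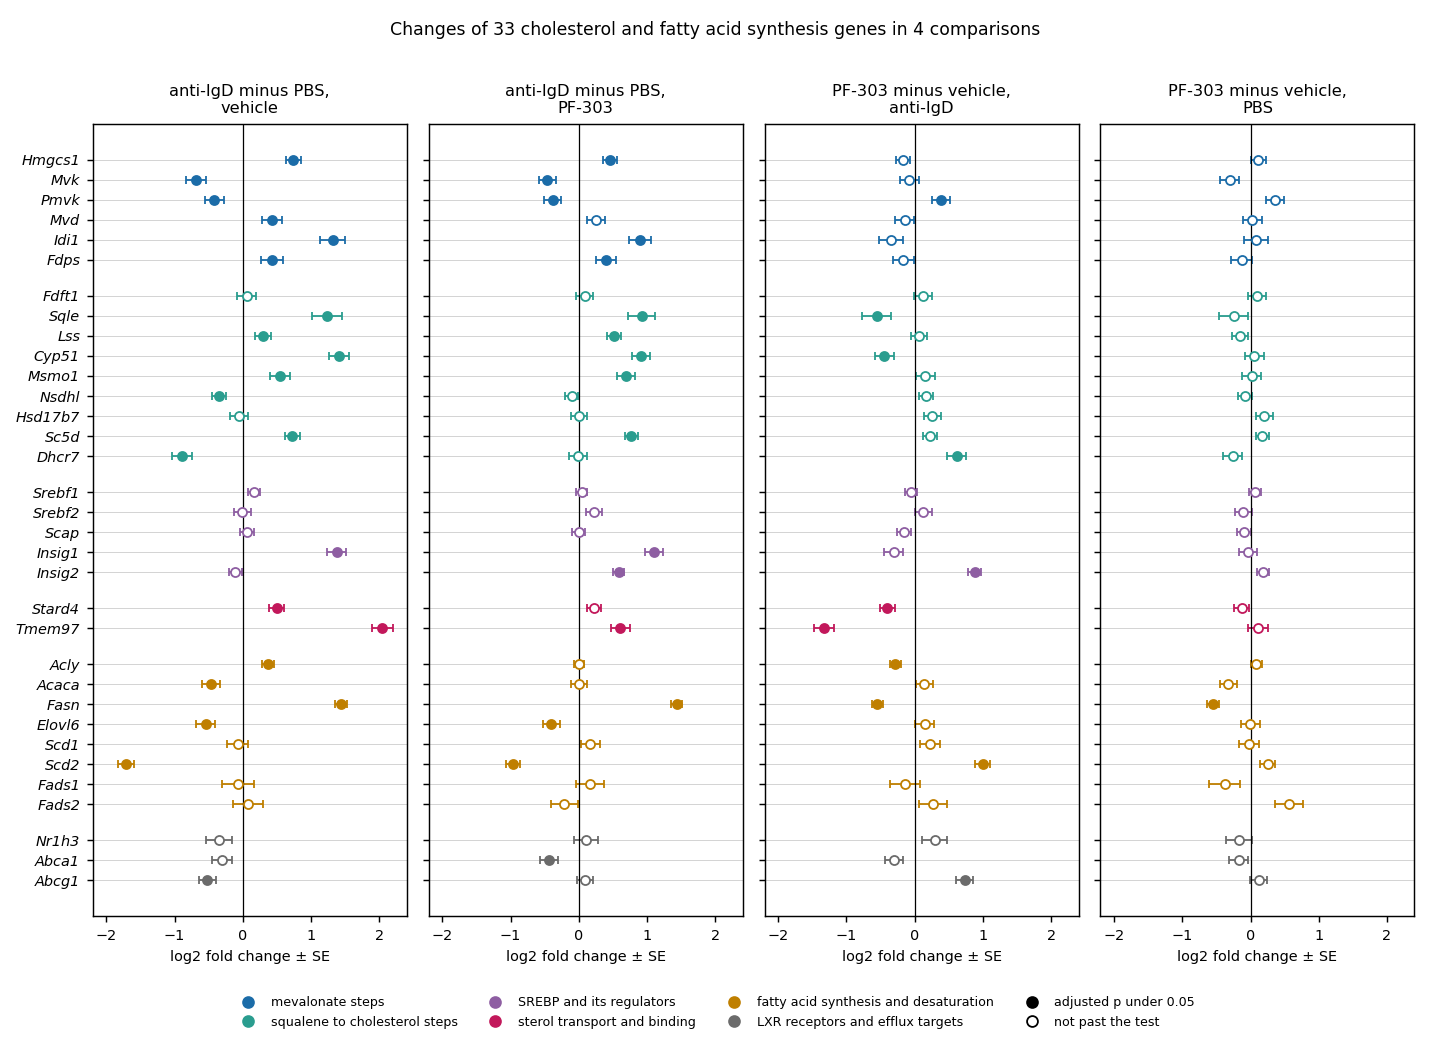
Log2 fold change ± SE (horizontal axis) of the 33 genes (rows, coloured by role) in 4 comparisons, with filled points for an adjusted p under 0.05 and open points otherwise. Anti-IgD moved genes on both sides of 0, with Tmem97 at 2.04 and Scd2 at -1.72 under vehicle, and in PBS-treated mice only Fasn passed the test.

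The enzymes from acetyl-CoA to farnesyl diphosphate went both ways with anti-IgD. Under PF-303 3 of 6 were higher and 2 lower (50% and 33.3%, beside 14.7% and 19.1% of all genes). Under vehicle 4 were higher and 2 lower (66.7% and 33.3%, beside 17.4% and 30.6% of all genes). Hmgcs1 encodes the synthase of HMG-CoA and was measured by probe set 1433445_x_at. Its signal was 489, 547, 622, 439 and 499.7 in anti-IgD plus PF-303 and 609, 516, 514 and 713 in anti-IgD plus vehicle. It was 371, 380.3, 345, 335 and 428 in PBS plus PF-303 and 335, 408, 304 and 329.9 in PBS plus vehicle. Every stimulated array lay above every unstimulated one, and the inhibitor and vehicle groups overlapped in both states. The fold change with anti-IgD was 0.46 ± 0.10 (adjusted p = 0.0013) under PF-303 and 0.74 ± 0.12 (adjusted p = 1.4e-05) under vehicle. PF-303 gave -0.17 ± 0.11 (adjusted p = 0.26) in stimulated cells. Without the 6 arrays with strong spike-in controls the response under PF-303 was 0.32 and no longer called.

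Idi1 encodes the isomerase that makes dimethylallyl diphosphate (probe set 1451122_at). It had signals of 208, 314, 399.8, 223 and 211 in anti-IgD plus PF-303 and 333, 291, 300.1 and 443 in anti-IgD plus vehicle. Unstimulated cells had 138, 137, 129, 107 and 163 in PBS plus PF-303 and 99.8, 136, 108 and 169.5 in PBS plus vehicle. The stimulated and unstimulated arrays did not overlap, and the largest spread was within anti-IgD plus PF-303, where replicate 3 was highest. Anti-IgD gave 0.90 ± 0.16 (adjusted p = 0.00017) under PF-303 and 1.32 ± 0.18 (adjusted p = 3.4e-06) under vehicle, a ratio of mean signals of 2.66. The difference made by PF-303 in stimulated cells was -0.34 ± 0.17 (adjusted p = 0.14), and without replicate 3 of anti-IgD plus PF-303 it was called, at -0.49. With anti-IgD the other probe set of Idi1 gave 0.56 (adjusted p = 0.11) under PF-303, not called, and 1.21 (adjusted p = 0.0013) under vehicle.

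Mvk encodes mevalonate kinase, and its probe set 1418052_at was weak. Signals were 8.86, 17.6, 19.97, 18.9 and 14.4 in anti-IgD plus PF-303 and 19.7, 18.9, 14.7 and 16.7 in anti-IgD plus vehicle, around the filter level of 15.2. They were 34.3, 32.1, 23.3, 25.3 and 23.8 in PBS plus PF-303 and 37.2, 31.6, 43.4 and 40.1 in PBS plus vehicle, so stimulated arrays were lower throughout. Anti-IgD gave -0.46 ± 0.13 (adjusted p = 0.007) under PF-303 and -0.69 ± 0.14 (adjusted p = 0.00034) under vehicle, and the other probe set of Mvk gave 0.00 under vehicle. The call under PF-303 was lost with the position block (-0.39) and with the mean of both Mvk probe sets (-0.25), with values of -0.79 to -0.20 over its alternatives. The call under vehicle was lost with the position block (-0.51), with values of -1.08 to -0.32. PF-303 gave -0.08 ± 0.13 (adjusted p = 0.72) in stimulated and -0.31 ± 0.13 (adjusted p = 0.41) in unstimulated cells.

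Pmvk encodes the next kinase and was lower with anti-IgD in both states, with -0.39 ± 0.13 (adjusted p = 0.021) under PF-303 and -0.42 ± 0.14 (adjusted p = 0.017) under vehicle. Its signals ranged over 85.9 to 109 in anti-IgD plus PF-303, 59.9 to 87.5 in anti-IgD plus vehicle, 114 to 181 in PBS plus PF-303 and 72.6 to 114 in PBS plus vehicle. The call under vehicle was lost without replicate 4 of anti-IgD plus vehicle or 2 of PBS plus vehicle and once arrays had a common median (-0.26), and with the position block (-0.28). The call under PF-303 was lost without replicate 4 of anti-IgD plus PF-303 or 3 of PBS plus PF-303 (-0.28 at the smallest). PF-303 in stimulated cells gave 0.39 ± 0.13 (adjusted p = 0.031), a call lost without any one of replicates 1, 3 and 5 of anti-IgD plus PF-303 or 1, 2 and 4 of anti-IgD plus vehicle, once arrays had a common median (0.28), and with a replicate block (0.38) or the position block (0.21).

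Mvd, the decarboxylase that makes isopentenyl diphosphate, gave 0.25 ± 0.13 (adjusted p = 0.14) under PF-303 and was higher under vehicle (0.43 ± 0.14, adjusted p = 0.017), with another probe set at 0.57. Its call under vehicle did not survive leaving out replicate 2 or 5 of anti-IgD plus vehicle (0.36 at the smallest). Fdps, the farnesyl diphosphate synthase gene, was higher under PF-303 (0.40 ± 0.15, adjusted p = 0.042) and under vehicle (0.43 ± 0.17, adjusted p = 0.036). Both Fdps calls were close to the threshold. The call under PF-303 did not survive leaving out replicate 2, 3 or 4 of anti-IgD plus PF-303 or 1, 3, 4 or 5 of PBS plus PF-303 (0.28 to 0.51), and it was lost with the position block (0.47). That under vehicle did not survive leaving out replicate 2, 4 or 5 of anti-IgD plus vehicle or 1, 2 or 4 of PBS plus vehicle (0.35 to 0.61).

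From squalene to cholesterol, 5 of 9 enzymes were higher and 0 lower with anti-IgD under PF-303 (55.6% and 0%, beside 14.7% and 19.1% of all genes). Under vehicle 5 were higher and 2 lower (55.6% and 22.2%, beside 17.4% and 30.6% of all genes). At the probe sets used, the same 5 genes, Sqle, Lss, Cyp51, Msmo1 and Sc5d, were higher in both. The stimulated arrays of each lay above the unstimulated ones in both. Over all genes, group ranges were apart in the upward direction for 11.2% under PF-303 and 15.2% under vehicle. The plot of signals per array shows these genes with the other members of large change.

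**Figure D2:**
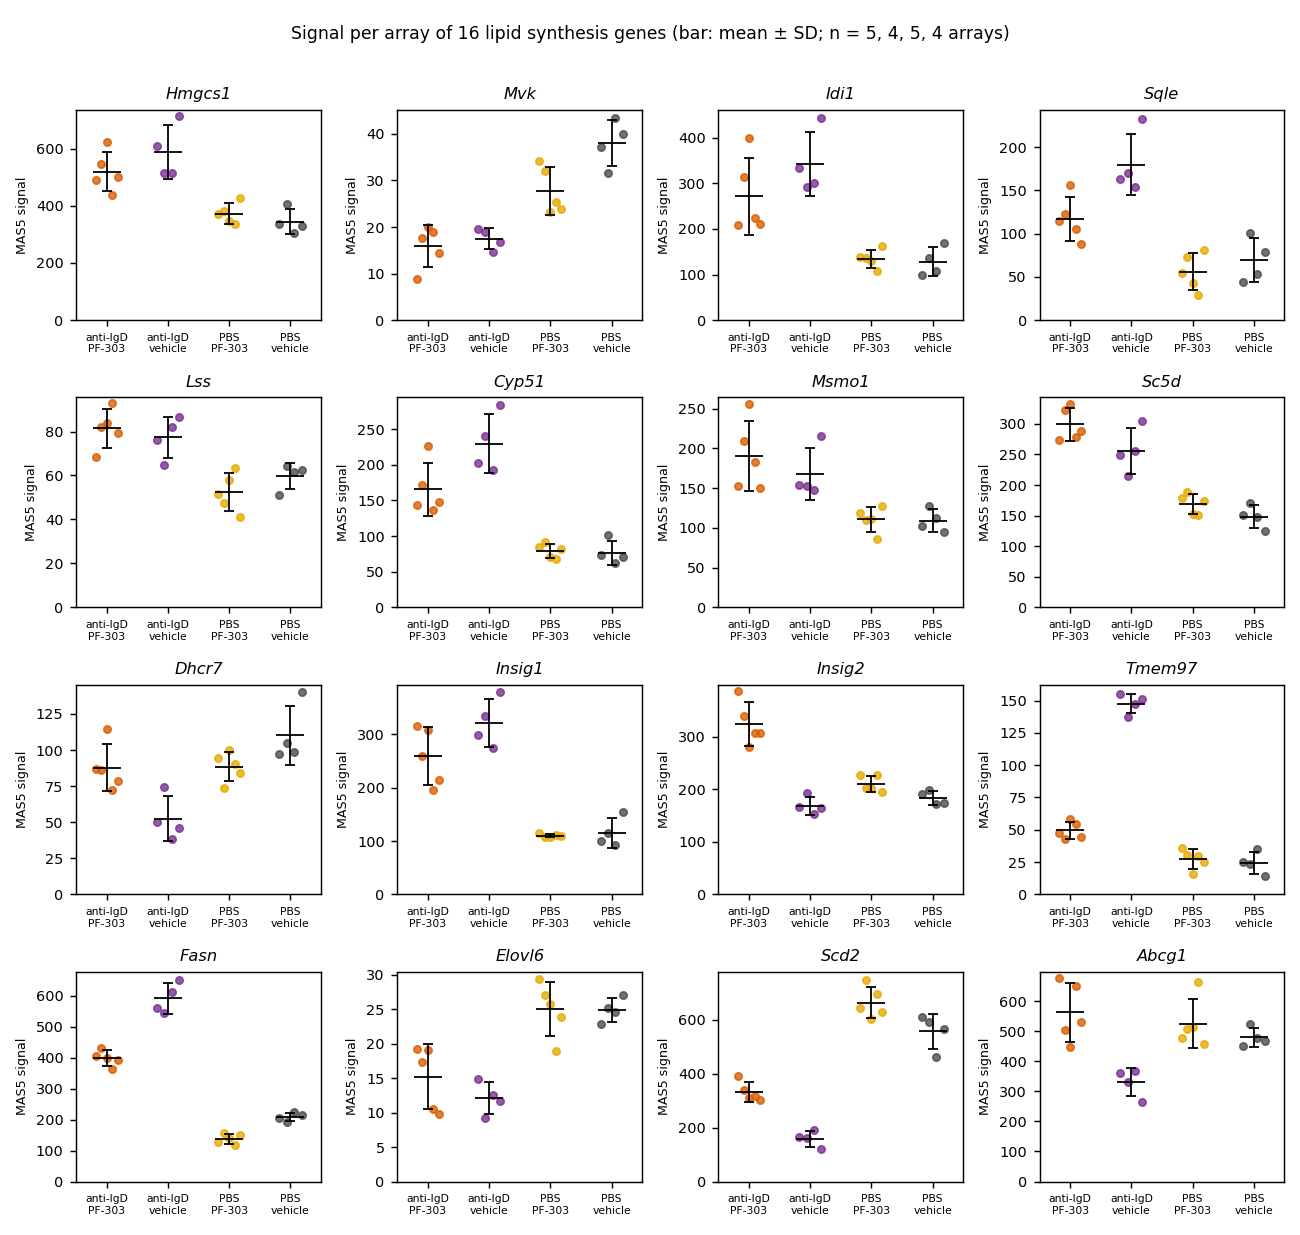
MAS5 signal (vertical axis, linear, from 0) of 16 genes in each of the 18 arrays, by group, with bars for the mean ± SD. Tmem97 was 137 to 155 in the 4 arrays of anti-IgD plus vehicle and at most 58.7 elsewhere, and Scd2 was lowest in the same 4 arrays.

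Cyp51 encodes the demethylase of lanosterol (probe set 1450646_at). Its signal was 144, 172, 227, 137 and 148 in anti-IgD plus PF-303 and 203, 240.3, 194 and 284 in anti-IgD plus vehicle. It was 84.7, 91.9, 70.4, 68.2 and 82.5 in PBS plus PF-303 and 73.4, 101, 62.5 and 70.0 in PBS plus vehicle. Stimulated arrays were all above unstimulated ones, and only replicate 3 of anti-IgD plus PF-303 reached into the range of anti-IgD plus vehicle. Anti-IgD gave 0.91 ± 0.13 (adjusted p = 1.2e-05) under PF-303 and 1.41 ± 0.15 (adjusted p = 6.9e-08) under vehicle, a ratio of means of 2.996. PF-303 lowered it in stimulated cells (-0.44 ± 0.14, adjusted p = 0.02), a call lost without replicate 2 or 5 of anti-IgD plus vehicle or 4 of anti-IgD plus PF-303 (-0.35 at the smallest). Between the responses of Cyp51 the difference was -0.50 ± 0.20 (adjusted p = 0.12) and passed the test without replicate 3 of anti-IgD plus PF-303 or 2 of PBS plus vehicle (-0.62 at the largest).

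Sqle encodes squalene epoxidase (probe set 1415993_at). Signals were 114, 123, 157, 106 and 87.5 in anti-IgD plus PF-303 and 163, 170.4, 154 and 232 in anti-IgD plus vehicle. They were 55.0, 72.5, 43.4, 28.7 and 81.6 in PBS plus PF-303 and 44.3, 101, 53.8 and 78.3 in PBS plus vehicle. Stimulated arrays were above unstimulated ones within each treatment, the unstimulated arrays were widely spread, and replicate 3 of anti-IgD plus PF-303 was the only one of its group above the lowest of anti-IgD plus vehicle. Anti-IgD gave 0.92 ± 0.20 (adjusted p = 0.00088) under PF-303 and 1.23 ± 0.22 (adjusted p = 7.8e-05) under vehicle, and without the 6 arrays with strong spike-in controls the value under PF-303 was 0.51 and not called. PF-303 in stimulated cells gave -0.56 ± 0.21 (adjusted p = 0.048). That call was lost without any one of 9 arrays: replicates 1, 2, 4 and 5 of anti-IgD plus PF-303, each of the 4 of anti-IgD plus vehicle and replicate 1 of PBS plus PF-303 (-0.66 to -0.44). It was also lost with the position block (-0.49).

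Sc5d encodes the sterol desaturase (probe set 1451457_at). Signals were 274, 322, 333, 278 and 288 in anti-IgD plus PF-303 and 248, 215, 255 and 305 in anti-IgD plus vehicle. They were 178, 189, 153, 150.5 and 174 in PBS plus PF-303 and 151, 169.9, 147 and 125 in PBS plus vehicle. Stimulated arrays were all above unstimulated ones, with a rise of like size in both: 0.77 ± 0.09 (adjusted p = 1.2e-06) under PF-303 and 0.72 ± 0.11 (adjusted p = 6.6e-06) under vehicle. The difference between the responses was 0.05 ± 0.14 (adjusted p = 0.89), with a 95% interval of -0.25 to 0.34. The other probe set of Sc5d was higher with anti-IgD under PF-303 (0.40, adjusted p = 0.031) and gave -0.02 under vehicle, so the rise under vehicle was seen at 1 of its 2 probe sets. PF-303 gave 0.22 ± 0.10 (adjusted p = 0.11) in stimulated cells, which was called without replicate 5 of anti-IgD plus vehicle (0.30) and with the mean of both probe sets (0.40), and the other probe set alone gave 0.59 (adjusted p = 0.0042).

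Msmo1 encodes the methylsterol monooxygenase (probe set 1423078_a_at). Its signal was 153, 209, 256, 182 and 149.9 in anti-IgD plus PF-303 and 154, 153, 147 and 216 in anti-IgD plus vehicle. It was 119, 110.3, 111, 86.2 and 128 in PBS plus PF-303 and 103, 128, 112 and 94.7 in PBS plus vehicle. Anti-IgD plus PF-303 was the most spread group, and no array of either stimulated group overlapped with PBS. The fold change was 0.68 ± 0.13 (adjusted p = 0.0003) under PF-303 and 0.54 ± 0.15 (adjusted p = 0.0041) under vehicle, and PF-303 gave 0.16 ± 0.14 (adjusted p = 0.44) in stimulated cells. The other kept probe set of Msmo1 was weak, with a mean signal of 14.6. With anti-IgD it gave -0.01 (adjusted p = 0.975) under PF-303 and 0.13 (adjusted p = 0.53) under vehicle.

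Lss encodes lanosterol synthase (probe set 1420013_s_at). Signals were 68.3, 82.2, 84.1, 93.0 and 79.4 in anti-IgD plus PF-303 and 76.1, 64.7, 82.1 and 86.4 in anti-IgD plus vehicle. They were 51.4, 47.7, 58.1, 63.5 and 41.3 in PBS plus PF-303 and 51.3, 64.3, 61.4 and 62.3 in PBS plus vehicle. The stimulated arrays were only just above the unstimulated ones under vehicle, with 64.7 as the lowest against 64.3 as the highest. Anti-IgD gave 0.51 ± 0.11 (adjusted p = 0.00062) under PF-303 and 0.30 ± 0.12 (adjusted p = 0.044) under vehicle. The call under vehicle was lost without any one of 9 arrays: replicates 2 and 5 of anti-IgD plus PF-303, 1, 4 and 5 of anti-IgD plus vehicle, 1 of PBS plus PF-303 and 1, 3 and 4 of PBS plus vehicle (0.24 to 0.37). The other kept probe set of Lss was not called with anti-IgD, at 0.21 (adjusted p = 0.24) under PF-303 and 0.24 (adjusted p = 0.19) under vehicle.

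Dhcr7, whose reductase makes cholesterol from its direct precursor, went the other way (probe set 1448619_at). Signals were 87.0, 86.4, 115, 72.2 and 78.5 in anti-IgD plus PF-303 and 50.4, 74.7, 38.5 and 46.3 in anti-IgD plus vehicle. They were 94.4, 73.6, 99.7, 90.4 and 84.2 in PBS plus PF-303 and 96.99, 105, 98.5 and 140.2 in PBS plus vehicle. The 4 arrays of anti-IgD plus vehicle were below all of PBS plus vehicle, the PF-303 groups overlapped each other, and 1 array of each of them lay below the highest of anti-IgD plus vehicle. Anti-IgD gave -0.02 ± 0.13 (adjusted p = 0.94) under PF-303 and -0.89 ± 0.15 (adjusted p = 3.5e-05) under vehicle. PF-303 raised it in stimulated cells (0.61 ± 0.14, adjusted p = 0.0021) and gave -0.26 ± 0.14 (adjusted p = 0.54) in unstimulated cells, and the call in stimulated cells was lost with the position block (0.56). The difference between the responses was 0.88 ± 0.20 (adjusted p = 0.008), where 6.66% of all genes were called higher and 3.12% lower in this comparison. That difference was not called without the 6 arrays with strong spike-in controls (0.73) or with the position block (0.88).

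Nsdhl, the sterol dehydrogenase gene, gave -0.11 ± 0.10 (adjusted p = 0.43) with anti-IgD under PF-303 and was lower under vehicle (-0.35 ± 0.11, adjusted p = 0.0094), a call lost once arrays had a common median (-0.19) and with the position block (-0.21). Fdft1 (squalene synthase) gave 0.06 ± 0.14 (adjusted p = 0.78) and Hsd17b7 (a sterol ketoreductase) -0.06 ± 0.13 (adjusted p = 0.74) under vehicle, and neither was called in any comparison. Signals of Fdft1 lay between 90.9 and 171 and those of Hsd17b7 between 38.4 and 71.3 over the 18 arrays. Their probe sets, like those used for Hmgcs1 and Acly, are of the x type, which can also bind other transcripts.

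Among SREBP and its regulators, Insig1 and Insig2 changed, while Srebf1, Srebf2 and Scap passed no test at the probe sets used. Insig1 is itself a target of SREBP (probe set 1454671_at). Its signal was 316, 259, 308, 197 and 214 in anti-IgD plus PF-303 and 298, 334, 275 and 379 in anti-IgD plus vehicle. It was 115, 107, 108, 112 and 109 in PBS plus PF-303 and 99.7, 116, 91.9 and 155 in PBS plus vehicle. Stimulated arrays were all above unstimulated ones, and within PBS plus PF-303 the arrays were close together. Anti-IgD gave 1.10 ± 0.13 (adjusted p = 5.5e-07) under PF-303 and 1.37 ± 0.14 (adjusted p = 6.1e-08) under vehicle, a ratio of means of 2.78. PF-303 in stimulated cells gave -0.31 ± 0.14 (adjusted p = 0.091), which was called without replicate 1 of anti-IgD plus PF-303 (-0.38), once arrays had a common median (-0.42) and without the 6 arrays with strong spike-in controls (-0.50).

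Insig2, the partner of Insig1 in holding SCAP back, was higher with anti-IgD under PF-303 (probe set 1417981_at). Signals were 388, 341, 280.3, 308 and 308 in anti-IgD plus PF-303 and 166, 193, 152 and 166 in anti-IgD plus vehicle. They were 227, 202, 202, 228 and 195 in PBS plus PF-303 and 191, 199, 172 and 174 in PBS plus vehicle. All 5 arrays of anti-IgD plus PF-303 were above every other array. Anti-IgD gave 0.58 ± 0.08 (adjusted p = 1.2e-05) under PF-303 and -0.11 ± 0.10 (adjusted p = 0.34) under vehicle, with a difference between the responses of 0.70 ± 0.13 (adjusted p = 0.0015) that was not called with the position block (0.64). At the other probe sets of Insig2 the difference between the responses was not called (0.53 and 0.48, adjusted p = 0.13 for each). PF-303 raised Insig2 in stimulated cells (0.88 ± 0.09, adjusted p = 3e-07), at 3 of 3 probe sets (0.72 to 0.88), and gave 0.18 ± 0.09 (adjusted p = 0.5) in unstimulated cells.

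With anti-IgD under PF-303, Srebf1 gave 0.04 ± 0.08, Srebf2 0.23 ± 0.12 and Scap -0.00 ± 0.10. Under vehicle Srebf1 gave 0.16 ± 0.09 (adjusted p = 0.16), Srebf2 -0.01 ± 0.13 (adjusted p = 0.97) and Scap 0.06 ± 0.11 (adjusted p = 0.68). Srebf1 signals lay between 274 and 397, those of Srebf2 between 238 and 453 and those of Scap between 275 and 427 over the 18 arrays, and groups overlapped in each gene. The array measures transcripts, and the cutting of SREBP was not measured. Srebf1 was called higher under vehicle once arrays had a common median (0.33), and weaker probe sets passed for the other genes. Another probe set of Srebf2 was lower with anti-IgD under vehicle (-0.50, adjusted p = 0.0082) and passed for the difference between the responses (0.69, adjusted p = 0.037). In stimulated cells PF-303 lowered another probe set of Scap (-0.75, adjusted p = 0.0081), and the mean of both Scap probe sets was called as well (-0.45).

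Both genes of sterol transport and binding were higher with anti-IgD under vehicle and lower with PF-303 in stimulated cells, with group ranges apart in each of these comparisons (15.2% of all genes in the upward and 9.32% in the downward direction). Tmem97 encodes a membrane protein that binds the lysosomal cholesterol carrier NPC1 (probe set 1416376_at). Its signal was 47.6, 43.2, 58.7, 54.6 and 44.3 in anti-IgD plus PF-303 and 155, 137, 147 and 151 in anti-IgD plus vehicle. It was 35.9, 30.8, 15.6, 29.9 and 25.3 in PBS plus PF-303 and 25.05, 23.2, 34.8 and 14.3 in PBS plus vehicle. No array of anti-IgD plus vehicle came near any other group, and those of anti-IgD plus PF-303 were still above all PBS arrays. Anti-IgD gave 0.61 ± 0.14 (adjusted p = 0.0015) under PF-303 and 2.04 ± 0.15 (adjusted p = 4.4e-10) under vehicle, a ratio of means of 6.07. PF-303 gave -1.32 ± 0.15 (adjusted p = 7.7e-07) in stimulated cells and 0.11 ± 0.15 (adjusted p = 0.83) in unstimulated cells. Tmem97 responses differed by -1.44 ± 0.21 (adjusted p = 0.00022), the largest of the 33 genes. Its size depended on the offset and was -0.95 to -1.75 over the alternatives that gave a value, with the call kept in each of these. Tmem97 was above the filter level in 17 arrays, so it had no value where all 18 had to pass.

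Stard4 encodes a protein that moves sterol between membranes. Its signals ranged over 119.8 to 162 in anti-IgD plus PF-303, 182 to 206 in anti-IgD plus vehicle, 100.5 to 135 in PBS plus PF-303 and 110.3 to 151 in PBS plus vehicle. Anti-IgD gave 0.22 ± 0.10 (adjusted p = 0.11) under PF-303 and 0.49 ± 0.12 (adjusted p = 0.0012) under vehicle, and PF-303 gave -0.40 ± 0.11 (adjusted p = 0.008) in stimulated cells. All 3 of its probe sets had the same signs, with 0.37 to 0.80 for anti-IgD and -0.40 to -0.20 for PF-303. With the position block neither call of Stard4 was kept (0.46 under vehicle and -0.38 for PF-303), and with a replicate block the response under PF-303 was called (0.22).

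Fatty acid genes did not move as a group. With anti-IgD under PF-303 1 of 8 was higher and 2 lower (12.5% and 25%, beside 14.7% and 19.1% of all genes), with a median of -0.00. Under vehicle 2 were higher and 3 lower (25% and 37.5%, beside 17.4% and 30.6% of all genes), with a median of -0.08. Fasn encodes fatty acid synthase (probe set 1423828_at). Its signal was 406, 431, 399, 363 and 392 in anti-IgD plus PF-303 and 559.9, 542, 612 and 650.4 in anti-IgD plus vehicle. It was 128, 156, 139.6, 117 and 149 in PBS plus PF-303 and 205, 193, 223 and 214 in PBS plus vehicle. The 4 groups did not overlap, and each PF-303 group was below its vehicle group. In unstimulated cells the ranges of the PF-303 and vehicle groups were apart in the upward direction for 1.68% of all genes and in the downward direction for 2.42%. Anti-IgD gave 1.43 ± 0.08 (adjusted p = 3.5e-12) under PF-303 and 1.43 ± 0.09 (adjusted p = 1.4e-11) under vehicle, and the difference between these was 0.00 ± 0.12, with a 95% interval of -0.24 to 0.24. PF-303 gave -0.55 ± 0.08 (adjusted p = 2.6e-05) in stimulated and -0.55 ± 0.08 (adjusted p = 0.0007) in unstimulated cells. Fasn was the 1 member called without anti-IgD, and this call was lost without the 6 arrays with strong spike-in controls (-0.43).

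Scd2 encodes a stearoyl-CoA desaturase (probe set 1415822_at). Signals were 391, 339, 309, 316 and 302.98 in anti-IgD plus PF-303 and 166, 161, 191 and 119 in anti-IgD plus vehicle. They were 642, 746, 604, 696 and 629 in PBS plus PF-303 and 609, 590.0, 462 and 564 in PBS plus vehicle. The stimulated groups lay apart from each other and below both PBS groups. Anti-IgD gave -0.97 ± 0.10 (adjusted p = 1.4e-07) under PF-303 and -1.72 ± 0.11 (adjusted p = 6.4e-11) under vehicle, and PF-303 gave 0.999 ± 0.11 (adjusted p = 6.3e-07) in stimulated cells and 0.25 ± 0.11 (adjusted p = 0.4) in unstimulated cells. The difference between the responses was 0.75 ± 0.15 (adjusted p = 0.0036). The other probe sets of Scd2 had the same signs with smaller values, down to -0.52 for anti-IgD and 0.26 for PF-303. Under vehicle they were called, and under PF-303 they gave -0.71 (adjusted p = 0.0018) and -0.15 (adjusted p = 0.46) with anti-IgD. Neither was called for PF-303 in stimulated cells (0.37, adjusted p = 0.11, and 0.26, adjusted p = 0.2) or for the difference between the responses (0.18 and 0.37).

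Elovl6, an elongase gene, was weak (probe set 1417404_at). Signals were 19.3, 17.3, 19.1, 10.6 and 9.84 in anti-IgD plus PF-303 and 14.9, 9.26, 12.5 and 11.6 in anti-IgD plus vehicle. They were 29.4, 27.0, 25.7, 18.9 and 23.9 in PBS plus PF-303 and 22.9, 25.1, 24.6 and 27.0 in PBS plus vehicle. None of the 4 arrays of anti-IgD plus vehicle was above the filter level of 15.2, so the gene passed the filter through the groups in which it was higher, and the PF-303 groups overlapped. Anti-IgD gave -0.40 ± 0.13 (adjusted p = 0.017) under PF-303 and -0.55 ± 0.14 (adjusted p = 0.0027) under vehicle, the call under PF-303 being lost without replicate 5 of anti-IgD plus PF-303 (-0.34). With the position block neither call of Elovl6 was kept (-0.43 under PF-303 and -0.54 under vehicle). Its other kept probe set was not called with anti-IgD, at -0.27 (adjusted p = 0.27) under PF-303 and -0.19 (adjusted p = 0.46) under vehicle.

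Acly, which makes cytosolic acetyl-CoA from citrate, gave -0.00 ± 0.08 with anti-IgD under PF-303, was higher under vehicle (0.37 ± 0.08, adjusted p = 0.0011), and was lowered by PF-303 in stimulated cells (-0.28 ± 0.08, adjusted p = 0.01), a call lost with the position block (-0.28). Its 4 other probe sets differed from this: for anti-IgD under vehicle they gave -0.00 to 0.28, none of them called, and under PF-303 probe sets of Acly gave 0.34 (adjusted p = 0.036) and 0.32 (adjusted p = 0.026). The mean of all 5 Acly probe sets gave -0.10 for PF-303 in stimulated cells, which was not called. Between its responses the difference was -0.37 ± 0.11 (adjusted p = 0.043). That call was lost without any one of 13 arrays: replicates 1 to 4 of anti-IgD plus PF-303, all 4 of anti-IgD plus vehicle, 2, 4 and 5 of PBS plus PF-303 and 3 and 4 of PBS plus vehicle (-0.41 to -0.31). It was also lost with a replicate block (-0.33) or the position block (-0.38). At both Acly probe sets that were higher under PF-303 the difference had the opposite sign (0.22 at each, not called), and the mean of all 5 gave -0.07.

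Acaca, whose carboxylase commits acetyl-CoA to fatty acids, gave 0.00 ± 0.12 with anti-IgD under PF-303 and was lower under vehicle (-0.47 ± 0.13, adjusted p = 0.0054), a call lost once arrays had a common median (-0.30). Scd1, the other stearoyl-CoA desaturase gene measured, had strong signals of 3548 to 5592 and gave -0.08 ± 0.15 (adjusted p = 0.71) under vehicle. In the 6 arrays with strong spike-in controls Scd1 lay between 5086 and 5592, against 3548 to 5213 in the other 12 arrays, and its other probe set was higher with anti-IgD (0.79) and lower with PF-303 in stimulated cells (-0.36). No direction is given for Scd1, since its probe sets differ in sign. Fads1 and Fads2, desaturases of polyunsaturated fatty acids, were above the filter level in 10 and 6 arrays and passed no test, with -0.07 ± 0.23 (adjusted p = 0.83) and 0.08 ± 0.22 (adjusted p = 0.8) under vehicle.

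The efflux genes showed a difference between the 2 states of treatment at Abcg1. It encodes a cholesterol exporter (probe set 1423570_at). Signals were 677, 505, 447, 652 and 531 in anti-IgD plus PF-303 and 361, 331, 367 and 264 in anti-IgD plus vehicle. They were 479, 508, 515, 664 and 458 in PBS plus PF-303 and 452, 524, 477 and 466 in PBS plus vehicle. The 4 arrays of anti-IgD plus vehicle were below all 14 others, and the other groups overlapped. Anti-IgD gave 0.09 ± 0.11 (adjusted p = 0.58) under PF-303 and -0.52 ± 0.13 (adjusted p = 0.0016) under vehicle, and PF-303 gave 0.73 ± 0.12 (adjusted p = 7.5e-05) in stimulated cells. The difference between the Abcg1 responses was 0.62 ± 0.17 (adjusted p = 0.024). That call was lost without replicate 5 of anti-IgD plus vehicle (0.52), once arrays had a common median (0.49), with the position block (0.80) and with the mean of both probe sets (0.54). The other probe set of Abcg1 was lower with anti-IgD under vehicle (-0.63, adjusted p = 0.018). It was not called for PF-303 in stimulated cells (0.49, adjusted p = 0.074) or for the difference (0.46, adjusted p = 0.36).

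Abca1, another exporter, had signals of 644 to 995 in anti-IgD plus PF-303, 863 to 997 in anti-IgD plus vehicle, 834 to 1302 in PBS plus PF-303 and 956 to 1474 in PBS plus vehicle. It was lower with anti-IgD under PF-303 (-0.43 ± 0.13, adjusted p = 0.012). Neither other probe set of Abca1 was called in this comparison (-0.14, adjusted p = 0.48, and -0.29, adjusted p = 0.12). Under vehicle the probe set used gave -0.31 ± 0.14 (adjusted p = 0.084), and it was called there without replicate 3 or 4 of PBS plus vehicle (-0.40 at the largest). It was also called under vehicle with a replicate block (-0.45) or the position block (-0.65). PF-303 in stimulated cells gave -0.30 ± 0.14 (adjusted p = 0.1), which was called without replicate 5 of anti-IgD plus PF-303 (-0.40) and once arrays had a common median (-0.41). Nr1h3, which encodes LXR alpha, was weak, above the filter level in 13 arrays, and gave -0.35 ± 0.20 (adjusted p = 0.15) under vehicle.

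The responses to anti-IgD under PF-303 and under vehicle come from separate arrays. Over the 33 genes they had a Pearson r of 0.86 and a Spearman rho of 0.82, and over the 15 cholesterol enzymes 0.92 and 0.93. All 11104 genes gave 0.81 and 0.74, and genes are not independent replicates. The response under PF-303 was the smaller one for 22 of the 33 genes and for 7745 of all 11104 genes, which are like shares. The difference itself was called for 6, with Dhcr7, Insig2, Scd2 and Abcg1 higher and Tmem97 and Acly lower. That is 12.1% and 6.06% of the 33 genes, beside 6.66% and 3.12% of all genes, 9.78% in all. For the cholesterol enzymes with the largest rises, Idi1, Sqle and Cyp51, the difference was not called. Its 95% interval was -0.93 to 0.09 for Idi1, -0.93 to 0.30 for Sqle and -0.91 to -0.08 for Cyp51.

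**Figure D3:**
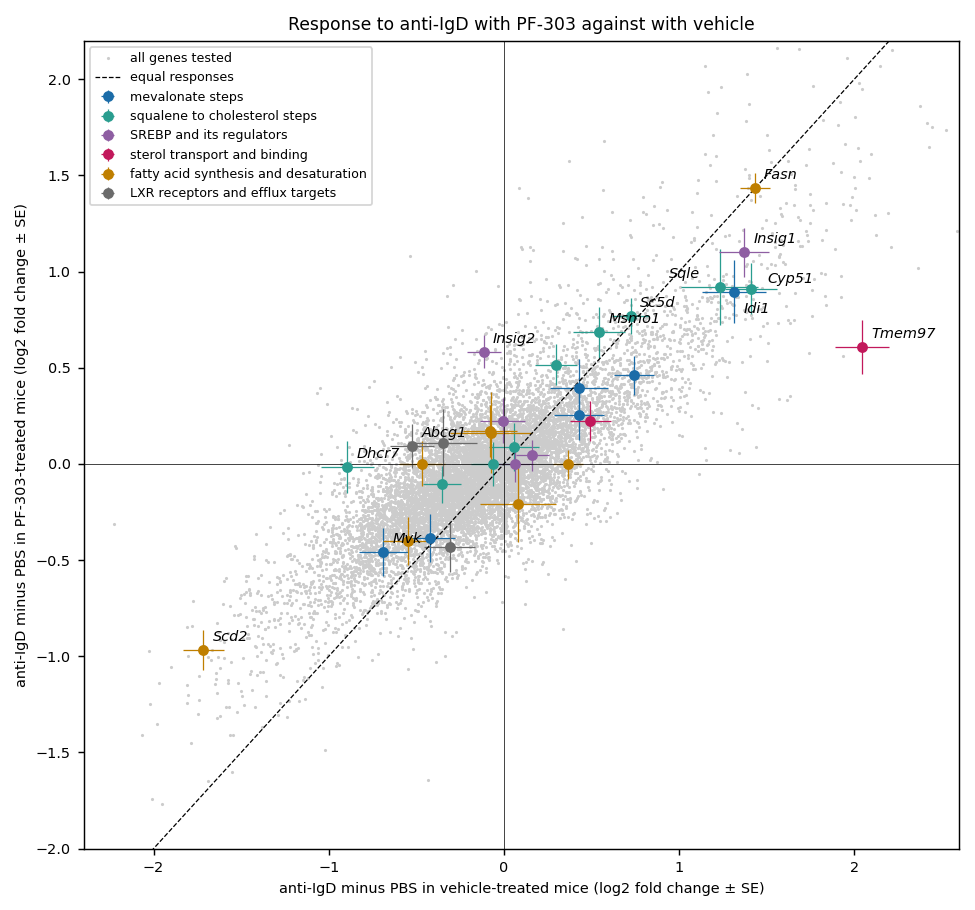
Log2 fold change ± SE of anti-IgD over PBS under PF-303 (vertical axis) against that under vehicle (horizontal axis) for the 33 genes in colour and all genes tested in grey, cut at the axis limits, with a dashed line for equal responses. Fasn lies on the line, Tmem97 (0.61 against 2.04) lies far below it and Insig2 (0.58 against -0.11) above it.

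The median shift of each role was also taken in every array, as the difference from the mean of PBS plus vehicle. For the 6 mevalonate genes it was 0.07 to 0.66 in anti-IgD plus PF-303, 0.23 to 0.57 in anti-IgD plus vehicle, -0.06 to 0.12 in PBS plus PF-303 and -0.10 to 0.10 in PBS plus vehicle. For the 9 genes from squalene to cholesterol it was 0.17 to 0.53, 0.09 to 0.44, -0.12 to 0.18 and -0.08 to 0.19 in the same order of groups. The stimulated groups overlapped each other in both roles and had higher medians than the unstimulated ones. For the 8 fatty acid genes all 4 groups overlapped, from -0.19 to 0.18.

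**Figure D4:**
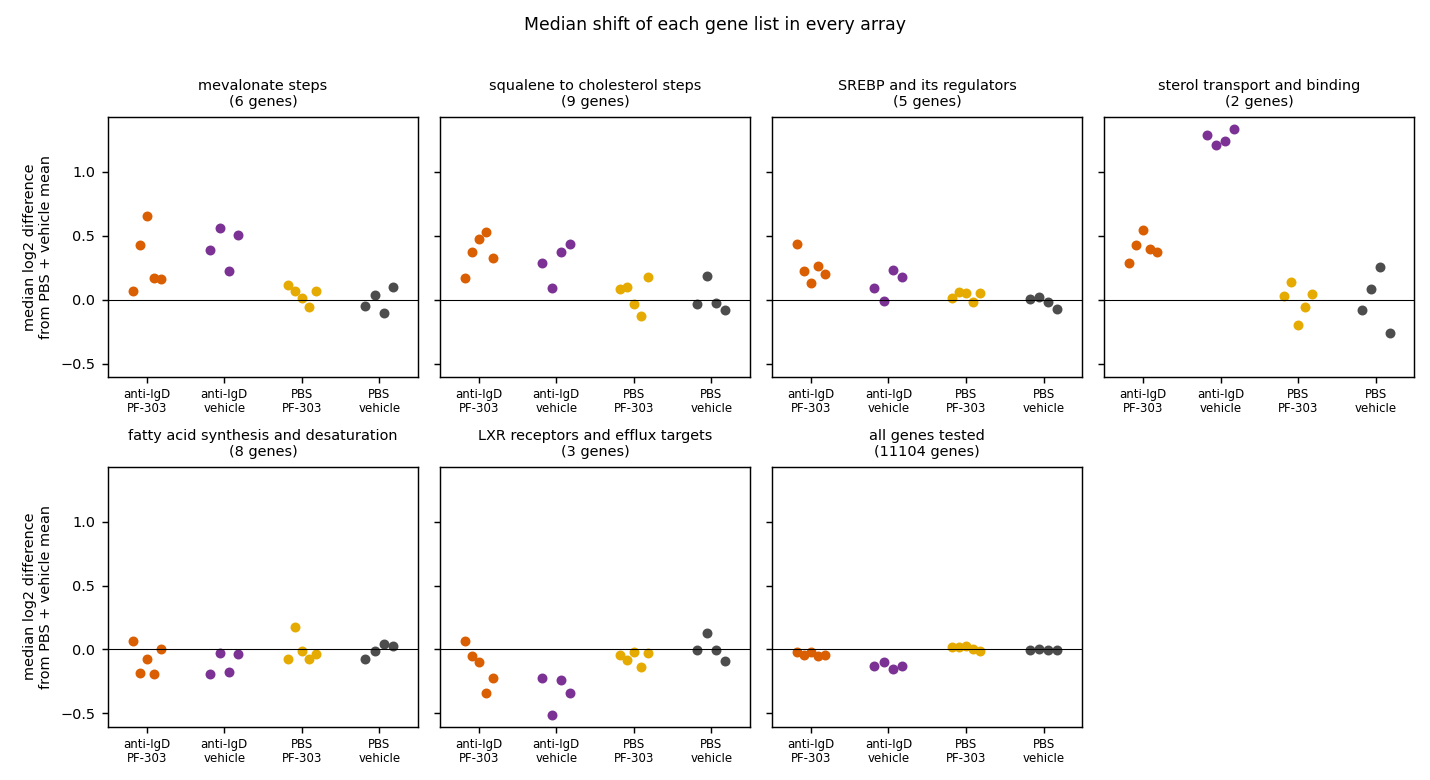
Median over the genes of a role of the log2 difference from the mean of PBS plus vehicle (vertical axis), 1 point per array, by group, with all genes tested in the last panel. The pair of sterol transport and binding genes lies at 1.21 to 1.34 in anti-IgD plus vehicle and at most 0.55 elsewhere, while the median of all genes tested lies at -0.16 to -0.10 in that group.

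Of the 33 genes, 21 had more than 1 probe set that passed the filter. For Hmgcs1, Idi1, Cyp51, Stard4, Scd2 and Abcg1, among others, all of them had the same sign for anti-IgD under vehicle, and likewise for PF-303 in stimulated cells. Not all of these probe sets were called in both comparisons. Those of Hmgcs1 gave 0.35 to 0.86 with anti-IgD under vehicle, those of Idi1 1.21 to 1.32 and those of Cyp51 1.19 to 1.41. Signs differed for anti-IgD between the probe sets of Mvk, Hsd17b7, Sc5d, Insig2, Acly, Scd1 and Fads1. Probe sets of a gene can lie in different parts or forms of its transcript, and which form each one reads is not analysed here.

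**Figure D5:**
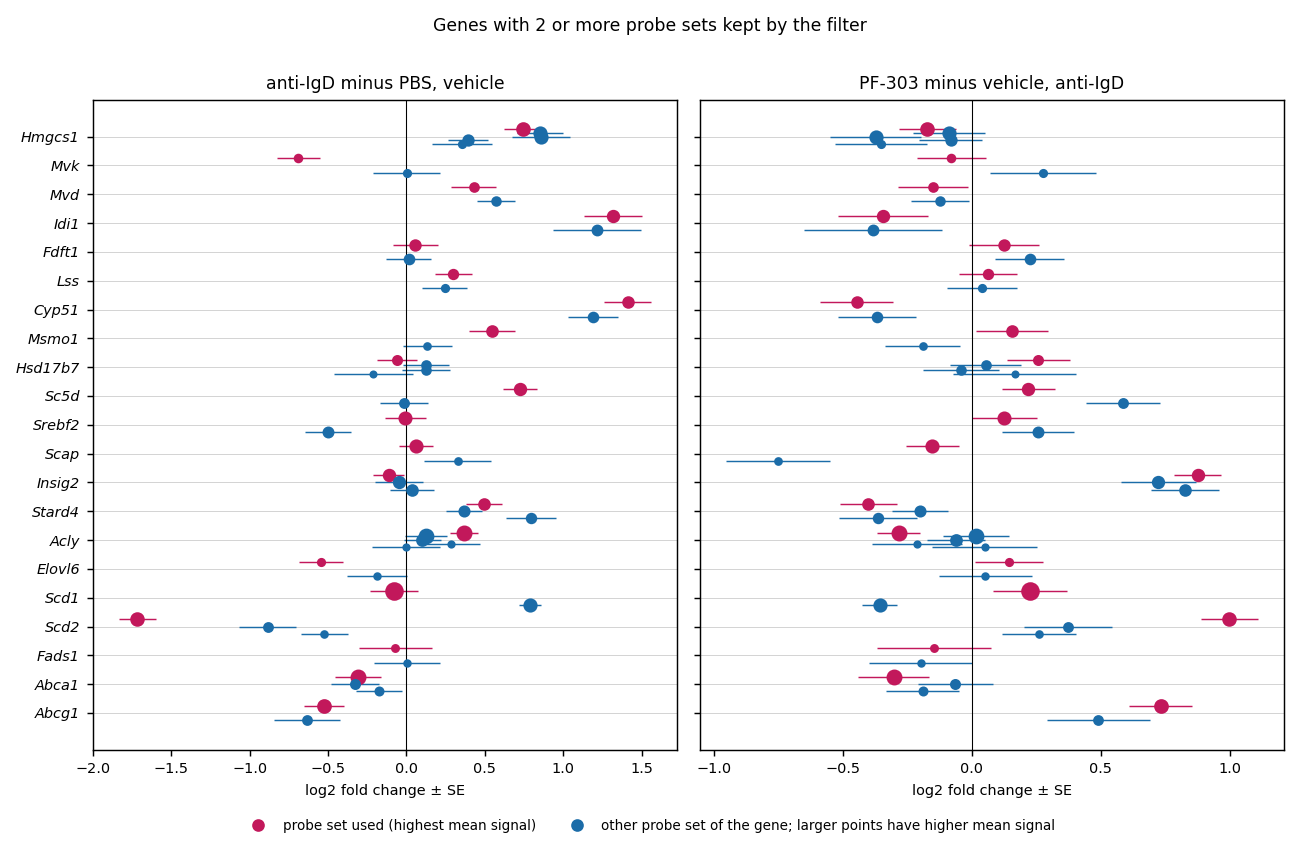
Log2 fold change ± SE (horizontal axis) of every kept probe set of the 21 genes with more than 1, with the probe set used in red and the others in blue, for anti-IgD under vehicle (left) and PF-303 in stimulated cells (right). The probe sets of Idi1 and Cyp51 lie together, whereas those of Sc5d (0.72 and -0.02) and Scd1 (-0.08 and 0.79) lie apart for anti-IgD.

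Beyond the 35 members, 41 other genes of the pathway were listed, of which 32 had a probe set and 27 passed the filter. With anti-IgD under PF-303 3 of the 27 were higher and 6 lower (11.1% and 22.2%, beside 14.7% and 19.1% of all genes), with a median of -0.09. Under vehicle 5 were higher and 10 lower (18.5% and 37.0%, beside 17.4% and 30.6% of all genes), with a median of -0.14. PF-303 in stimulated cells left 8 higher and 1 lower (29.6% and 3.70%, beside 19.8% and 10.4% of all genes), with a median of 0.15, and 0 were called in unstimulated cells. Mylip, a ubiquitin ligase gene that LXR acts on, averaged 849 ± 172 in anti-IgD plus PF-303, 649.7 ± 135 in anti-IgD plus vehicle, 1848 ± 154 in PBS plus PF-303 and 1677 ± 210.2 in PBS plus vehicle (SD, n = 5, 4, 5 and 4). It was lower with anti-IgD under PF-303 (-1.13 ± 0.13, adjusted p = 5.3e-07) and under vehicle (-1.36 ± 0.15, adjusted p = 9.3e-08), and all stimulated arrays were below all unstimulated ones.

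Npc1, which exports cholesterol from lysosomes, had signals of 128, 141, 147, 154 and 125 in anti-IgD plus PF-303 and 90.2, 70.3, 84.1 and 61.1 in anti-IgD plus vehicle. It had 151, 144, 168, 175 and 143 in PBS plus PF-303 and 142, 125, 189.5 and 174 in PBS plus vehicle. Only the arrays of anti-IgD plus vehicle stood apart, below the others. Anti-IgD gave -0.15 ± 0.11 (adjusted p = 0.31) under PF-303 and -0.91 ± 0.12 (adjusted p = 1.9e-06) under vehicle, PF-303 gave 0.75 ± 0.11 (adjusted p = 3.1e-05) in stimulated cells, and the difference between the responses was 0.75 ± 0.16 (adjusted p = 0.0051). Osbpl5, an oxysterol-binding protein gene, was lower with anti-IgD under PF-303 (-1.002 ± 0.27, adjusted p = 0.0057) and under vehicle (-1.63 ± 0.30, adjusted p = 0.00011). Its signals were 5.40 to 45.5 in anti-IgD plus PF-303 and 35.3 to 106 in PBS plus PF-303, which overlapped. They were 2.42 to 22.4 in anti-IgD plus vehicle, with 1 array above the filter level, and 53.2 to 110.6 in PBS plus vehicle. Apoe, the apolipoprotein E gene, which macrophages express, was higher under PF-303 (0.90 ± 0.16, adjusted p = 0.00015) and under vehicle (0.74 ± 0.18, adjusted p = 0.0018) and lower with PF-303 in stimulated cells, at -0.54 ± 0.17 (adjusted p = 0.022), where the group ranges overlapped. In unstimulated cells PF-303 gave Apoe -0.70 ± 0.17 (adjusted p = 0.059), which was not called, with signals of 283 to 345 in PBS plus PF-303 and 390.4 to 645 in PBS plus vehicle, which did not overlap. The part of the macrophage RNA described above in the Apoe signal was not tested.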

How the data were processed

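The authors deposited 1 table of MAS5 intensity values, a linear signal per probe set and array, for 18 samples, with MAS5 named in the submitters' processing notes and versions not given in the sources used here. Groups were taken from the labels. Of 45101 probe sets, 64 were controls, 34945 carried 1 gene symbol, 932 several and 9160 none, and symbols were updated through RefSeq (GRCm38.p6, names only). A gene was tested if 4 or more arrays gave it a signal over 15.2, which is the median of the whole table. Signals were tested as log2(signal + 16) with limma 3.58.1 (lmFit, eBayes with trend, statmod 1.5.0, R 4.3.3) in 1 fit over the 4 groups, with Benjamini-Hochberg adjustment over all 11104 genes and a threshold of 0.05. The procedure was tested on simulated data. The number of arrays limits the precision. No 2 arrays held identical values, and the smallest SD of log2 differences between any pair was 0.262.

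The 35 members, the other lists and the tests were chosen with earlier results of these data known. Members called with an absolute log2 fold change of at least 0.5 in any comparison are given in every array, the other members by range or fold change, and other pathway genes are named from 0.8. Signals of different probe sets were not compared in level, and probe sets carry no genome positions here. Alternatives covered the offset (1 and 64), the filter, the normalization, the variance model, the arrays in the fit, the replicate number and the position letter of the labels as blocks, the spike-in signal, the choice of probe set and leaving out each array. As a random block, the position letter had a consensus correlation of -0.0035 and left direction and call the same in all 70 pairs of a gene and a comparison. The position letter as a fixed block was added after seeing the data, and the groups were spread unevenly over the letters. Replicate numbers did not pair the arrays: over 24 pairs the correlation of deviations had a median of -0.003 (-0.161 to 0.225), and 7 pairs exceeded 0.1. Summed signals of the other marker lists over all arrays were 13.9 to 43.9 for NK cell genes, 77.1 to 839.8 for neutrophil genes, 57.8 to 104 for dendritic cell genes, 3189 to 5581 for plasma cell genes, 7.57 to 186 for erythroid genes and 90.2 to 315 for platelet genes.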

Additional observations from a re-analysis of the deposited data

Results flagged for a closer look

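Among 64 groups of values, for 16 genes in 4 groups, 2 arrays lay far from the others of their group. Chance alone marks about 1 in 20 groups. Msmo1 was 216 in replicate 5 of anti-IgD plus vehicle, where the other arrays had 147 to 154. Abcg1 was 664 in replicate 4 of PBS plus PF-303, where the other arrays had 458 to 515.

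For 6 genes the response to anti-IgD under PF-303 differed from that under vehicle by the limma test of the difference itself. The difference was 0.88 for Dhcr7, 0.70 for Insig2, 0.75 for Scd2 and 0.62 for Abcg1, and it was -1.44 for Tmem97 and -0.37 for Acly. At the other kept probe sets of Insig2 (0.53 and 0.48), Scd2 (0.18 and 0.37) and Abcg1 (0.46) it was not called. The other kept probe sets of Acly were not called either, and Dhcr7 and Tmem97 have 1 probe set each.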

How the results depend on the processing

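Over 70 pairs of a gene and a comparison, 2224 values were computed under the alternatives, of which 2072 kept direction and call, 112 lost the call, 31 gained it and 9 changed sign. Of 57 called pairs, 45 kept their call whichever array was left out. Members called lower with anti-IgD under vehicle numbered 5 once arrays had a common median and 5 with the position letter as a fixed block (8 as reported). With that block, members called with PF-303 in stimulated cells numbered 3 higher and 3 lower (5 and 6 as reported), members lower with anti-IgD under PF-303 numbered 3, and the members with a positive difference between the responses numbered 1 (4 as reported). All genes called then numbered 1725 for PF-303 in stimulated cells (3352 as reported), 42 for PF-303 in unstimulated cells (83 as reported) and 291 for the difference between the responses (1086 as reported). For PF-303 in unstimulated cells, all genes called numbered 28 with only the groups compared in the fit, 46 without the 6 arrays with strong spike-in controls, 148 with spike-in signal as a covariate and 42 to 108 with 1 array left out, and members lower numbered 0 without those 6 arrays. All genes called for the difference between the responses numbered 715 without those 6 arrays. Members lower with anti-IgD under PF-303 numbered 3 where every array had to pass the filter, since Mvk and Elovl6 were then not tested. Members lower for the difference numbered 1 (2 as reported) with the filter in all 18 arrays, where Tmem97 was not tested. With the call of Acly lost, they also numbered 1 with no filter, with eBayes without trend, with the replicate or the position block, without the 6 arrays, with the spike-in covariate and with the mean of probe sets. Leaving out 1 array gave 11 to 14 members higher and 7 to 9 lower with anti-IgD under vehicle, 4 to 6 and 4 to 7 with PF-303 in stimulated cells, 11 to 12 and 4 to 5 with anti-IgD under PF-303, and 3 to 4 and 1 to 3 for the difference. Scd1 under vehicle (-0.08) changed sign to 0.087 after the median shift, 0.083 with quantile normalization, 0.016 with the replicate block, 0.12 with the position block, 0.15 without the 6 arrays, 0.067 with the covariate, 0.35 with the mean of probe sets, and gave -0.16 to 0.0092 with 1 array left out. Fads2 under PF-303 (-0.21) gave 0.10 with no filter. With the replicate block, members called numbered 14 higher and 9 lower with anti-IgD under vehicle, 4 and 6 with PF-303 in stimulated cells, and 13 and 5 with anti-IgD under PF-303. The calls this block changed were those of Pmvk and Stard4 given above, Acly for the difference (-0.33) and Abca1 under vehicle (-0.45), and no other call of a member. Apart from the members that were no longer tested under the stricter filter, the cause of these changes was not tested. Signal near the filter level limits Mvk, Elovl6, Fads1, Fads2 and Nr1h3, and Osbpl5 among the other pathway genes.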
